A study of Mus musculus with 26 samples.

Results

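Striatal RNA of YAC128 mice was compared between 12 and 18 months of age, over all genes on the array. The comparison took every YAC128 array whose title carries the age 12 or 18, which gave 10 of the 26 arrays of the series, 5 at each age. The labels call these ages weeks and the study calls them months, and months are used here. The 12-month mice were 3 females and 2 males (F1, F2, F3, M1, M2), and the 18-month mice were 2 females and 3 males (F1, F2, M1, M2, M3). Each array is a different mouse, so a shared number does not mark the same animal.

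All 10 mice were hemizygous for YAC128, a transgene in which a yeast artificial chromosome holds the whole human huntingtin gene, with its CAG repeat expanded; the background was C57BL6/J. The mice keep their own Htt alleles, no other allele or agent was involved, and all were culled at the same point of the light phase. The 8 wild-type (WT) arrays of the same ages, 5 at 12 months and 3 at 18 months, are given where they bear on a result. RNA came from micro-dissected striatum, and every value below is a log2 array value.

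Huntington's disease is caused by an expanded CAG repeat in huntingtin, and the medium spiny neurons of the striatum are the cells most affected. These GABA-releasing neurons make up most of the striatum and form a direct pathway that carries the dopamine D1 receptor and an indirect pathway that carries the D2 receptor. In ageing brain, astrocytes and microglia are known to take on reactive states with more glial fibrillary acidic protein and complement, and oligodendrocytes go on adding myelin.

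The array medians lay between 7.43 and 7.50, no arrays held identical values, and the sex-linked gene Xist fitted the labelled sex in all 10. Over all probesets the median absolute deviation from the mean of the age group was largest in the 18-month M1 (0.107). It was 0.093 in the 12-month F1 and 0.086 in the 18-month M2. In several gene lists, however, the 18-month M2 stood apart. The mean of the medium spiny neuron genes was 9.89 in it and 10.52 to 10.61 in the other 18-month arrays. It also had the highest means of the choroid plexus genes (8.65), the thalamus, septum and hypothalamus genes (8.86) and the meninges genes (8.19). The 18-month F1 was high in the choroid plexus genes (8.37), and the 18-month M1 in the thalamus, septum and hypothalamus genes (8.65). The main results that these arrays move are given with and without them. The study remarks, of its comparison with another Huntington's disease mouse line, that samples of equal age shared a chip. The labels name no chip or batch, so an effect of either cannot be told apart from one of age.

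Between 12 and 18 months 3463 of 34760 probesets (2347 distinct genes) were altered in abundance at an unadjusted p under 0.05. That is 9.96% of the probesets, with 1847 (5.31%) higher and 1616 (4.65%) lower at 18 months, and the arrays of the ages did not overlap for 2.79% of them. No probeset passed an adjusted p of 0.05 in limma with Benjamini-Hochberg adjustment, and the smallest adjusted p was 0.194, so every call below is at the unadjusted threshold that the study also used. The differences were small: 94.7% of the called probesets differed by at most 0.5 on the log2 scale, 119 were more than 0.5 higher and 63 more than 0.5 lower. When each gene was taken by its probeset of the highest mean, 2272 of 19937 genes (11.4%) were called, 5.88% higher and 5.51% lower, and the median difference of all genes was 0.0024. The groups did not overlap for 745 genes (3.74%), with every 18-month array above every 12-month array in 1.62% of the genes and below in 2.12%. These shares are the background for the gene groups that follow. When the model took its spread from all 26 arrays, 40 probesets passed the adjusted threshold, 35 higher and 5 lower, among them Gfap, Scd1, Pmp22, Car2, Anln, Aqp4 and, on the lower side, Gabra2 and Fat3.

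The gene groups divided by cell type. Genes of mature oligodendrocytes, reactive glia and astrocytes were higher at 18 months, and genes of medium spiny neurons, of dopamine and cyclic AMP signalling and of the postsynaptic density were lower. Genes of the energy-producing machinery were called less often than the background in both directions. Those of the protein-making and protein-degrading machinery were called at shares near or somewhat below it, by counts of few genes. The plot of calls in 36 gene lists shows this order.

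**Figure D1:**
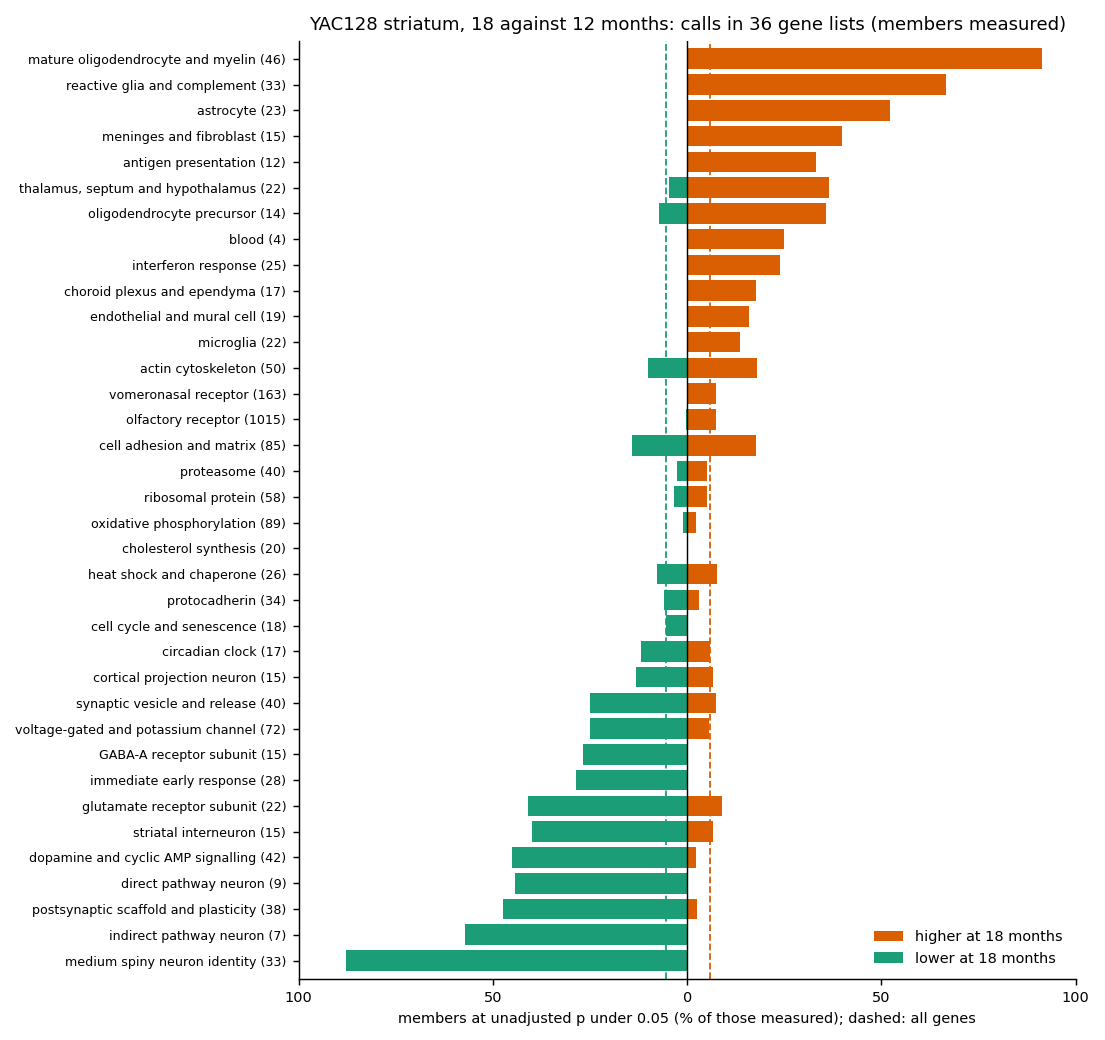
Share of the measured members of each of 36 gene lists that were higher (orange, to the right) or lower (green, to the left) at 18 than at 12 months in YAC128 striatum at an unadjusted p under 0.05, in percent, with the number of members measured in brackets. The dashed lines mark the shares over all genes (5.88% higher and 5.51% lower); 91.3% of the myelin genes were higher and 87.9% of the medium spiny neuron genes lower.

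Gfap, the intermediate filament of reactive astrocytes, had the smallest p of all named genes that were higher. It read 8.78, 8.43, 8.25, 8.25 and 8.47 in the 12-month arrays, in the order F1, F2, F3, M1, M2, and 9.18, 10.06, 9.23, 9.65 and 9.71 in the 18-month arrays, in the order F1, F2, M1, M2, M3, an order kept in all the sentences below. Every 18-month array was higher than every 12-month array. The difference was 1.13 (SE 0.17, adjusted p = 0.217), a 2.19-fold higher level. Mean Gfap over the 4 YAC128 arrays of 6 months was 8.49, near the 12-month mean of 8.44.

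Other genes of reactive glia moved the same way. Of 33 measured reactive glia and complement genes, 22 were higher (66.7%) and none lower, 31 differences were positive, and the median difference was 0.28. Serpina3n, a secreted protease inhibitor of reactive astrocytes, read 8.82, 8.69, 8.40, 8.61 and 8.58 at 12 months and 9.06, 9.42, 8.89, 9.23 and 9.40 at 18 months. The ages did not overlap, and the difference was 0.58 (SE 0.11, adjusted p = 0.236). The complement component C4b read 9.02, 9.07, 8.91, 8.83 and 8.61 at 12 months and 9.37, 9.63, 9.27, 9.04 and 9.59 at 18 months. Here the 18-month M2 fell inside the 12-month range, and the other 4 lay above it (0.49, SE 0.12, adjusted p = 0.253). The filament gene Vim (0.49, SE 0.09), the alarmin Il33 (0.38, SE 0.07) and B2m, the light chain of MHC class I (0.37, SE 0.09), did not overlap between the ages. Nor did Clec7a, a receptor of activated microglia and macrophages (0.40).

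Astrocyte genes were split. Of 23 measured, 12 were higher (52.2%) and none lower, with a median difference of 0.12, and the count was 6 without the 18-month M2. Aqp4, the water channel of astrocyte endfeet, read 8.93, 8.70, 8.90, 8.85 and 8.98 at 12 months and 9.12, 9.61, 9.35, 9.68 and 9.42 at 18 months. All 18-month arrays were higher (0.56, SE 0.10, adjusted p = 0.217). The gap junction gene Gjb6 (0.42, SE 0.09) and the potassium channel gene Kcnj10 (0.39, SE 0.08), both of astrocytes, were also higher without overlap. Aldh1l1 (0.07, SE 0.06), which marks astrocytes in general, and the glutamate transporter gene Slc1a3 (-0.02, SE 0.06) did not pass the test.

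Microglial genes were called less often than the reactive genes, a comparison that was not tested. Of 22 microglial genes 3 were higher (13.6%) and none lower, with a median difference of 0.053. The 3 were Tyrobp, a signalling adaptor (0.24, SE 0.10), Ly86 (0.24, SE 0.11) and C1qa, a chain of complement C1q (0.16, SE 0.07). The call was lost in 8 of 22 alternatives for Tyrobp and in 11 for C1qa. The markers of resting microglia Cx3cr1 (-0.01, SE 0.07), P2ry12 (-0.04, SE 0.08) and Tmem119 (-0.07, SE 0.09) did not pass the test. Of 25 interferon response genes 6 were higher (24%), with Ifih1, a sensor of viral RNA, at 0.26 (SE 0.09), and none lower. Of 12 antigen presentation genes 4 were higher (33.3%), among them B2m and the invariant chain gene Cd74 (0.33, SE 0.11).

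Myelin genes had the highest share called of the 36 lists. Of 46 measured genes of mature oligodendrocytes 42 were higher (91.3%) and none lower, and all 46 differences were positive, from 0.11 to 0.53 with a median of 0.27. In 15 of the 46 every 18-month array was above every 12-month array, against 1.62% of all genes. Car2, a carbonic anhydrase of oligodendrocytes, read 10.39, 10.40, 10.38, 10.43 and 10.43 at 12 months and 10.59, 10.94, 10.73, 10.95 and 10.80 at 18 months. The 12-month arrays lay in a narrow band and the 18-month arrays all above it (0.40, SE 0.07, adjusted p = 0.217, 1.32-fold). Anln read 9.31, 9.32, 9.16, 9.15 and 9.16 at 12 months and 9.47, 9.93, 9.57, 9.72 and 9.82 at 18 months. These ages did not overlap either (0.48, SE 0.09, adjusted p = 0.217).

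Genes of the myelin sheath itself were also higher. Mbp, the myelin basic protein, read 12.22, 12.12, 12.06, 12.11 and 12.14 at 12 months and 12.24, 12.49, 12.24, 12.25 and 12.37 at 18 months. The ages were separate by a small margin (0.19, SE 0.06, adjusted p = 0.356). The glycoprotein genes Mag (0.44, SE 0.09) and Mog (0.27, SE 0.08) were higher, with the 18-month F1 inside the 12-month range of both. The gap junction gene Gjc3 (0.39, SE 0.07), Aspa, which breaks down N-acetylaspartate (0.45, SE 0.09), and the lipid desaturase gene Scd1 (0.38, SE 0.07) did not overlap. Pmp22, a myelin protein gene (0.43, SE 0.08), and Tmem144 (0.28, SE 0.05) were among the 12 genes of the smallest p on the higher side. Myrf (0.14), Mal (0.16), Cldn11 (0.11) and Omg (0.12) were the 4 that did not pass. In the means of the list the 18-month F1 (9.76) lay level with the highest 12-month array (9.76), and the other 18-month arrays lay between 9.88 and 10.11.

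Oligodendrocyte precursor genes had no common direction. Of 14 measured, 5 were higher and 1 lower, with 7 differences of each sign, and the median was -0.0058 with the 18-month M2 and 0.012 without it. Olig1, a transcription factor of the whole lineage (0.29, SE 0.06), and Ptprz1 (0.22, SE 0.06) were higher without overlap, and the growth factor receptor gene Pdgfra, which defines precursors, was higher with overlap (0.14, SE 0.05, adjusted p = 0.422). Cspg4, the other defining gene, did not pass (-0.12, SE 0.07). In whole tissue, more cells of a type and more RNA per cell cannot be told apart, and the same holds for every loss below.

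**Figure D2:**
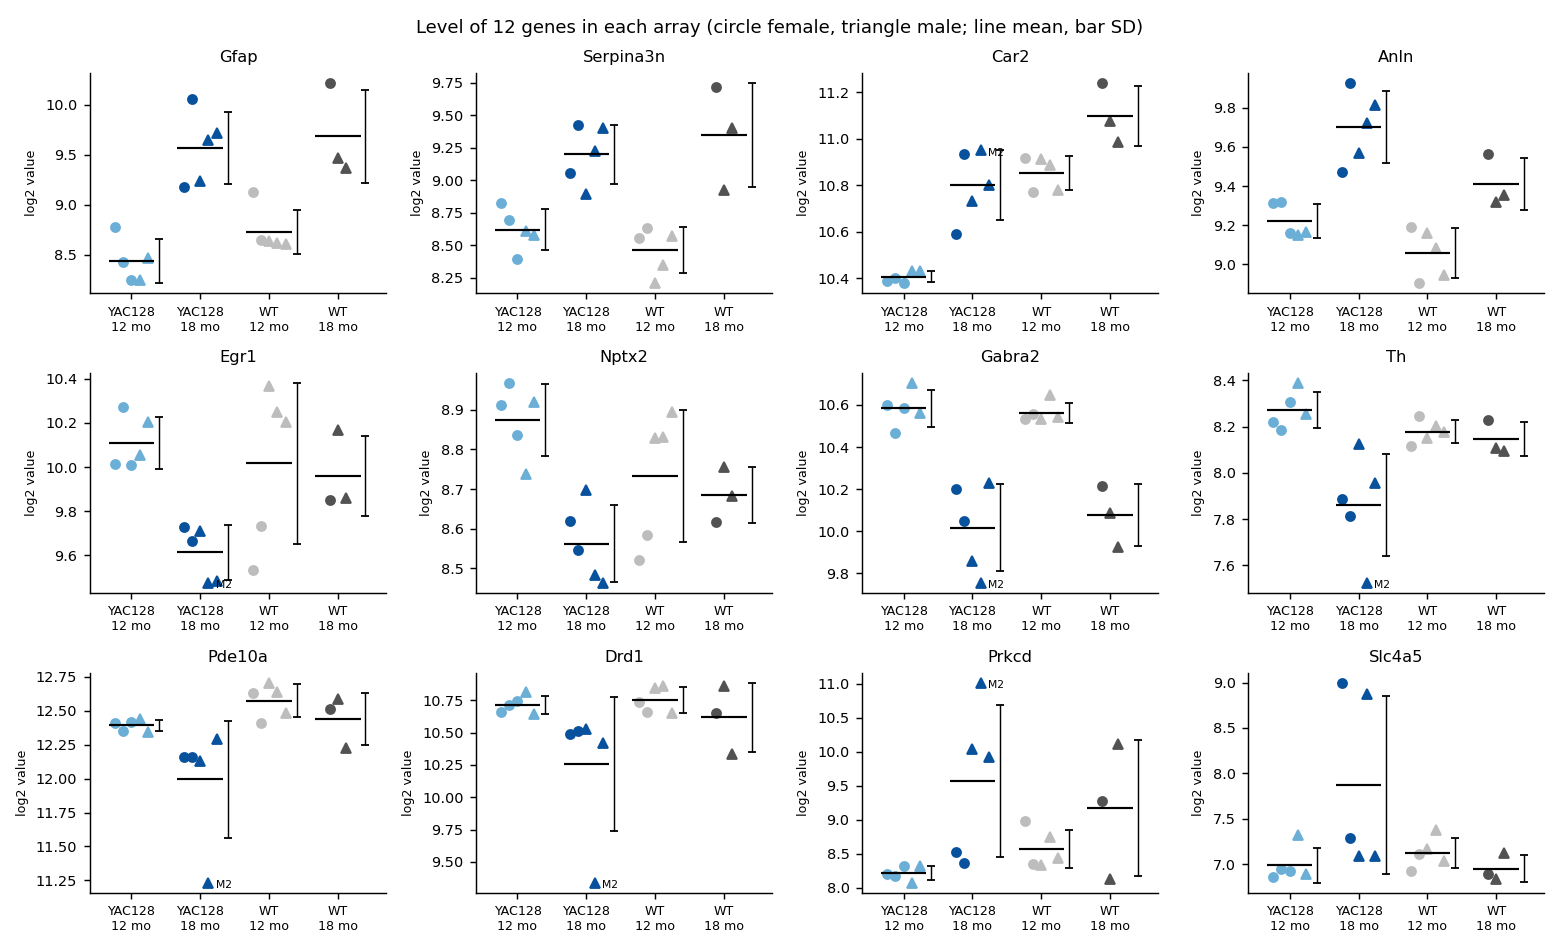
Log2 level (vertical axis, not starting at 0) of 12 genes in each array of YAC128 and WT striatum at 12 and 18 months, with circles for females, triangles for males, a line at the group mean and a bar for the SD. The glial and myelin genes of the top row were higher in all 18-month YAC128 arrays, Egr1, Nptx2, Gabra2 and Th were lower in all of them, and the 18-month M2 lies far below the rest for Pde10a and Drd1.

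Medium spiny neuron genes shifted downward almost without exception. Of 33 measured genes of medium spiny neuron identity 29 were lower (87.9%) and none higher, all 33 differences were negative, and the median was -0.31. In 26 of them every 18-month array lay below every 12-month array, against 2.12% of all genes. The size of the shift, though not its direction, depended on 1 array. The list mean was 10.80, 10.75, 10.76, 10.83 and 10.72 at 12 months and 10.61, 10.59, 10.52, 9.89 and 10.58 at 18 months. In the YAC128 arrays of 6 months it was 10.715 (F1), 10.88 (M1), 10.21 (M2) and 10.77 (M3). A low list mean was thus not limited to 18 months, as the 6-month M2 lay below every 18-month array except the 18-month M2. Without the 18-month M2 the median was -0.19, all 33 differences were still negative and 30 genes were lower, 28 of them the same genes. That array is also the highest in genes of choroid plexus, thalamus and meninges, and the part of neighbouring tissue in its low neuronal values was not tested. With M1 left out as well, 26 of 33 were lower. The number of calls also depended on the processing, and over all alternatives 13 to 31 genes were lower.

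Pde10a, the cyclic nucleotide phosphodiesterase of these neurons, read 12.41, 12.35, 12.41, 12.44 and 12.34 at 12 months and 12.16, 12.16, 12.13, 11.23 and 12.29 at 18 months. Every 18-month array was lower, 4 by little and M2 by far. The difference was -0.40 (SE 0.17, adjusted p = 0.474) with all arrays and -0.21 without M2, past the unadjusted threshold both ways, though not in 6 of the 22 alternatives. Ryr1, a calcium release channel, read 8.30, 8.38, 8.44, 8.40 and 8.24 at 12 months and 7.93, 8.04, 7.97, 7.44 and 8.02 at 18 months. The gap was clear in each array (-0.47, SE 0.11, adjusted p = 0.236; -0.36 without M2). Arpp21, a cyclic AMP-regulated phosphoprotein gene, was as low in M2 as in the rest, at 11.05, 10.91, 10.90, 10.96 and 10.97 at 18 months against 11.12, 11.20, 11.12, 11.15 and 11.19 at 12 months. Its difference was -0.20 (SE 0.05, adjusted p = 0.244) with M2 and -0.20 without it.

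Some of the best known genes of these neurons did not pass with all arrays. Ppp1r1b, which encodes the dopamine-regulated phosphoprotein DARPP-32, read 11.88, 11.91, 11.97, 12.04 and 11.89 at 12 months and 11.87, 11.81, 11.77, 10.86 and 11.67 at 18 months. The ages did not overlap, and the difference was -0.34 (SE 0.17, adjusted p = 0.531) with M2, and it did not pass the unadjusted threshold. Without M2 it passed, at -0.16, and it also passed in 3 alternatives that keep M2. Rxrg, a retinoid receptor gene, differed most of the list (-0.62, SE 0.22, adjusted p = 0.397), and by -0.37 without M2. The plot of medium spiny neuron genes gives each member both ways.

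**Figure D3:**
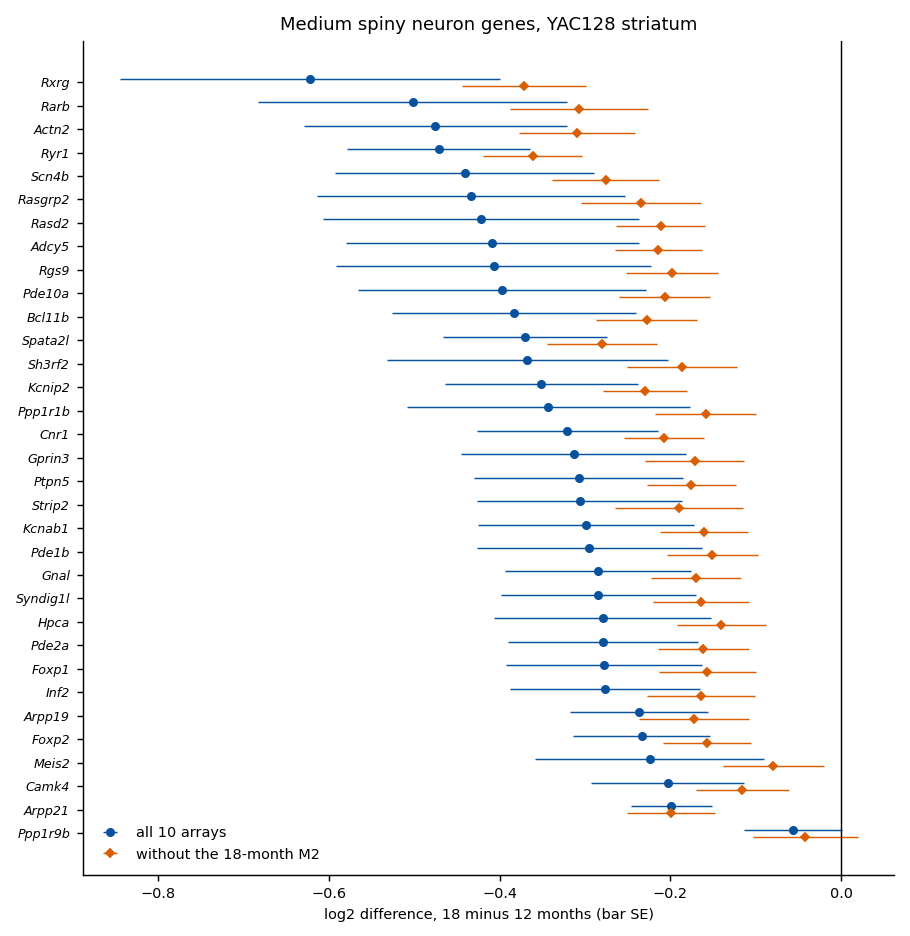
Log2 difference between 18 and 12 months (horizontal axis, bars SE) of the 33 measured medium spiny neuron genes in YAC128 striatum, with all 10 arrays (circles) and without the 18-month M2 (diamonds). All 33 points lie below 0 in both, and most lie closer to 0 without M2.

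Genes of the direct and of the indirect pathway were both lower where called. Of 9 direct pathway genes 4 were lower and none higher (median -0.28), and of 7 indirect pathway genes 4 were lower and none higher (median -0.35). The medians without the 18-month M2 were -0.11 and -0.20, and over all alternatives 1 to 5 genes of each list were lower. Drd1, the D1 receptor, read 10.66, 10.71, 10.74, 10.81 and 10.64 at 12 months and 10.49, 10.51, 10.52, 9.34 and 10.42 at 18 months. The ages were separate (-0.46, SE 0.20, adjusted p = 0.489; -0.23 without M2), but the call was lost in 7 of 22 alternatives. Drd2, the D2 receptor, read 11.59, 11.59, 11.55, 11.67 and 11.53 at 12 months and 11.45, 11.45, 11.35, 10.46 and 11.44 at 18 months. It too was lower in all 18-month arrays but did not pass with all 10 (-0.36, SE 0.17, adjusted p = 0.529). It passed without M2, at -0.16, and in 5 alternatives that keep M2. Among the neuropeptides, the enkephalin gene Penk (-0.35, SE 0.14, adjusted p = 0.452) and the dynorphin gene Pdyn (-0.37, SE 0.15, adjusted p = 0.441) were lower with overlap. Without M2 the difference of Penk was -0.20 and that of Pdyn -0.22. The substance P gene Tac1 did not pass (-0.28, SE 0.18, adjusted p = 0.681; -0.09 without M2).

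Dopamine and cyclic AMP signalling genes were also mostly negative, 33 of the differences being below 0. The list shares members, such as Adcy5, with the medium spiny neuron genes, so these counts are not separate from those above. Of 42 measured genes 19 were lower (45.2%) and 1 higher, with a median of -0.18. Without the 18-month M2 18 were lower and the median was -0.11, and over all alternatives 8 to 23 were lower. Adcy5, the main adenylyl cyclase of the striatum, differed by -0.41 (SE 0.17), or -0.21 without M2, and lost its call in 5 of 22 alternatives. The difference was -0.47 (SE 0.14) for the D3 receptor gene Drd3. Rgs4, a brake on G-protein signalling, read 10.95, 10.80, 10.82, 10.95 and 10.90 at 12 months and 10.49, 10.68, 10.70, 10.67 and 10.70 at 18 months. All 18-month arrays were lower, F1 the lowest (-0.24, SE 0.06, adjusted p = 0.252). Ppp1ca, the catalytic subunit of the phosphatase that DARPP-32 inhibits, was lower in every 18-month array (-0.34, SE 0.10, adjusted p = 0.31). The 1 gene that was higher, the adenylyl cyclase gene Adcy8 (0.53, SE 0.17; 0.35 without M2), read 8.95 in M2 and 7.89 to 8.15 in the other 18-month arrays.

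Among the inhibitory receptors the largest difference was that of Gabra2. Gabra2, the alpha-2 subunit of the GABA-A receptor, had the third smallest p among the lower genes and read 10.60, 10.47, 10.59, 10.70 and 10.56 at 12 months. At 18 months it read 10.20, 10.05, 9.86, 9.76 and 10.23, below every 12-month array. The difference was -0.57 (SE 0.09, adjusted p = 0.217), a 1.48-fold lower level, and -0.50 without M2. Of 15 GABA-A subunits measured 4 were lower and none higher. The other 3 were Gabrg3 (-0.33, SE 0.09), Gabra5 (-0.34, SE 0.10) and Gabrb1 (-0.17, SE 0.06). The median over the list was -0.11.

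Excitatory receptors and the postsynaptic density held more lower than higher genes. Of 22 glutamate receptor genes 9 were lower (40.9%) and 2 higher, with a median of -0.11. The metabotropic receptor gene Grm4 (-0.28, SE 0.07), the NMDA receptor gene Grin2b (-0.15, SE 0.04) and the AMPA receptor gene Gria1 (-0.23, SE 0.08) were lower without overlap. Of 38 postsynaptic scaffold and plasticity genes 18 were lower (47.4%) and 1 higher, with a median of -0.12. Homer1, which links metabotropic glutamate receptors to calcium stores, read 9.84, 9.91, 9.78, 9.79 and 9.76 at 12 months and 9.66, 9.62, 9.55, 9.45 and 9.57 at 18 months. Each 18-month array was lower (-0.25, SE 0.05, adjusted p = 0.236). Dlgap3, a scaffold gene rich in the striatum (-0.29, SE 0.07), did not overlap, and Dlg4, which encodes PSD-95 (-0.21, SE 0.06), overlapped by 1 array.

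Among 72 voltage-gated and potassium channels 18 were lower (25%) and 4 higher, and the median was -0.055. Scn2b, a sodium channel beta subunit, read 10.71, 10.67, 10.63, 10.67 and 10.71 at 12 months and 10.44, 10.49, 10.52, 10.39 and 10.51 at 18 months. The ages were well apart for a change this small (-0.21, SE 0.05, adjusted p = 0.236). The calcium channel gene Cacna1e (-0.35, SE 0.09) and the potassium channel gene Kcnq5 (-0.32, SE 0.08) were lower without overlap. Of 40 vesicle and release genes 10 were lower (25%), and 3 higher. The smallest p among them was that of the synapsin gene Syn2 (-0.22, SE 0.05), and Synpr, a vesicle membrane protein gene, differed by more (-0.34). Vamp1, a vesicle fusion protein (0.69, SE 0.17), and the vesicular glutamate transporter gene Slc17a6 were higher, both most in the 18-month M2. Snap25 (-0.03, SE 0.06), which all release sites use, did not pass.

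Egr1, a transcription factor induced by synaptic activity, had the smallest p of the lower genes. It read 10.01, 10.27, 10.01, 10.05 and 10.20 at 12 months and 9.73, 9.67, 9.71, 9.48 and 9.48 at 18 months. All 18-month arrays were lower, M2 and M3 alike (-0.50, SE 0.08, adjusted p = 0.217, 1.41-fold lower). Of 28 immediate early response genes 8 were lower (28.6%), none higher, and 24 differences were negative, with a median of -0.15. Egr3 (-0.36, SE 0.09) and Nptx2, a secreted pentraxin that gathers AMPA receptors (-0.31, SE 0.06), were lower without overlap. Nptx2 read 8.91, 8.97, 8.83, 8.74 and 8.92 at 12 months and 8.62, 8.55, 8.70, 8.48 and 8.46 at 18 months, so the separation came down to a small gap. Fos (-0.12, SE 0.11) and Arc (-0.10, SE 0.12), which are also induced by activity, did not pass.

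Several secreted factors of neurons were among the 12 lower genes of the smallest p. Inhba, a subunit of activin, differed by -0.41 (SE 0.08, adjusted p = 0.236). The neuropeptide precursor gene Vgf differed by -0.27 (SE 0.06), and Cx3cl1, the neuronal ligand of the microglial receptor Cx3cr1, by -0.28 (SE 0.06). Cx3cl1 read 10.98, 11.03, 10.99, 10.97 and 11.09 at 12 months and 10.84, 10.81, 10.73, 10.63 and 10.66 at 18 months. Each of the 3 was lower in every 18-month array. Oprk1, the kappa opioid receptor, was lower by one of the largest amounts (-0.57, SE 0.13, adjusted p = 0.244), with a slight overlap. Crym, a thyroid hormone-binding protein gene, read 10.21 in the 18-month F1, within the 12-month range, and 8.46 in M2 (-0.57).

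MiRNA genes were looked at after their values had been seen, because Mir154 had the second smallest p among the lower genes. MiRNAs are short RNAs that pair through their seed, bases 2 to 8, with messenger RNAs and lower their output. Whether the probes read the precursor, its host transcript or the mature form is not given in the sources used here. The mature forms of the genes described are shown with the seed in capitals, from RefSeq on GRCm38.p6, all called genes having at least 1 mature form listed. The first 9 belong to the genes that were lower, and the last 7 to genes that were higher and that share a seed or had the largest differences. Mir154 lies on chromosome 12, with miR-154-3p at chr12:109738474-109738495 on the plus strand, and Mir219a-2 on chromosome 2, with miR-219a-5p at chr2:29845689-29845709 on the minus strand.
mmu-miR-154-3p: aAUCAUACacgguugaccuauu
mmu-miR-329-3p: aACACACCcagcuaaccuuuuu
mmu-miR-341-3p: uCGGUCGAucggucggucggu
mmu-miR-376c-5p: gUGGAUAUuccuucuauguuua
mmu-miR-377-3p: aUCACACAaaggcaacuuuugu
mmu-miR-381-3p: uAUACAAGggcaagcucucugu
mmu-miR-485-3p: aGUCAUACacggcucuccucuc
mmu-miR-539-5p: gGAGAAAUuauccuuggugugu
mmu-miR-668-3p: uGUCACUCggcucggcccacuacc
mmu-miR-219a-5p: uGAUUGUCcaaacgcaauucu
mmu-miR-34a-5p: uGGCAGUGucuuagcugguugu
mmu-miR-29a-3p: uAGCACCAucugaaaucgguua
mmu-miR-29b-3p: uAGCACCAuuugaaaucaguguu
mmu-let-7a-5p: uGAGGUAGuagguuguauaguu
mmu-let-7d-5p: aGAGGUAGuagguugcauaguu
mmu-miR-181b-5p: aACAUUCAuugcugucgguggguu

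Mir154 read 7.56, 7.51, 7.57, 7.59 and 7.51 at 12 months and 7.29, 7.26, 7.07, 7.22 and 7.16 at 18 months. The ages were far apart relative to their spread (-0.35, SE 0.05, adjusted p = 0.217), and the mean over the 4 YAC128 arrays of 6 months, 7.35, lay between them. Of 305 miRNA probesets (300 genes) 28 were called (9.18%, against 9.96% of all probesets), 19 higher and 9 lower. All 9 that were lower lie between Dlk1 and Dio3, an imprinted stretch whose maternal copy is read into long noncoding RNAs, such as Meg3, and a large set of miRNAs. Of the 40 measured miRNA genes there, 9 were lower (22.5%) and none higher, 33 differences were negative, and the median was -0.11. Of the 265 other miRNA probesets, 19 were higher (7.17%, against 5.31% of all probesets) and none lower, and the median was 0.038. Their levels were low, with means between 6.21 and 6.34 over the 10 arrays.

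The difference at this stretch depended on a few arrays. The mean of the 40 miRNA genes was 7.84, 7.76, 7.78, 7.85 and 7.89 at 12 months and 7.88, 7.72, 7.64, 7.57 and 7.76 at 18 months. F1 of 18 months lay within the 12-month range, and M2 was the lowest. Without the 18-month M2 4 of the 40 were lower, without the 12-month M2 4 were as well, without both M1 and M2 2 were, and without the 18-month F1 13 were. Mir376c (-0.47, SE 0.15), Mir539 (-0.26, SE 0.09), Mir377 (-0.21, SE 0.09) and Mir341 (-0.16, SE 0.05) overlapped between the ages. Dlk1, at one end of the stretch, differed by -0.41 (SE 0.11, adjusted p = 0.285) and Meg3 by -0.15 (SE 0.07, adjusted p = 0.496), while Dio3 at the other end (-0.05, SE 0.10) and the noncoding Rian (-0.02, SE 0.06) did not pass.

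Among the miRNA genes that were higher, Mir219a-2, whose product promotes oligodendrocyte maturation, read 8.04, 7.83, 8.14, 7.95 and 7.94 at 12 months and 8.26, 8.70, 8.25, 8.48 and 8.30 at 18 months. The ages did not overlap (0.42, SE 0.09, adjusted p = 0.236). Mir34a, a target of p53, differed by 0.43 (SE 0.12) with all but a narrow overlap. Mir29a (0.40, SE 0.16) and Mir29b-1 (0.21, SE 0.08) share the seed shown above, as do Mirlet7a-1 (0.29, SE 0.08) and Mirlet7d (0.26, SE 0.10), and Mir181b-1 (0.32, SE 0.10) and Mir181b-2 (0.16, SE 0.07) have the same 5p form. No seed was shared among the listed mature forms of the genes that were lower. Not every mature form of the called genes is listed, for example of Mir376c and of Mirlet7a-2, which was also higher. Further shared seeds could therefore be missed.

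**Figure D4:**
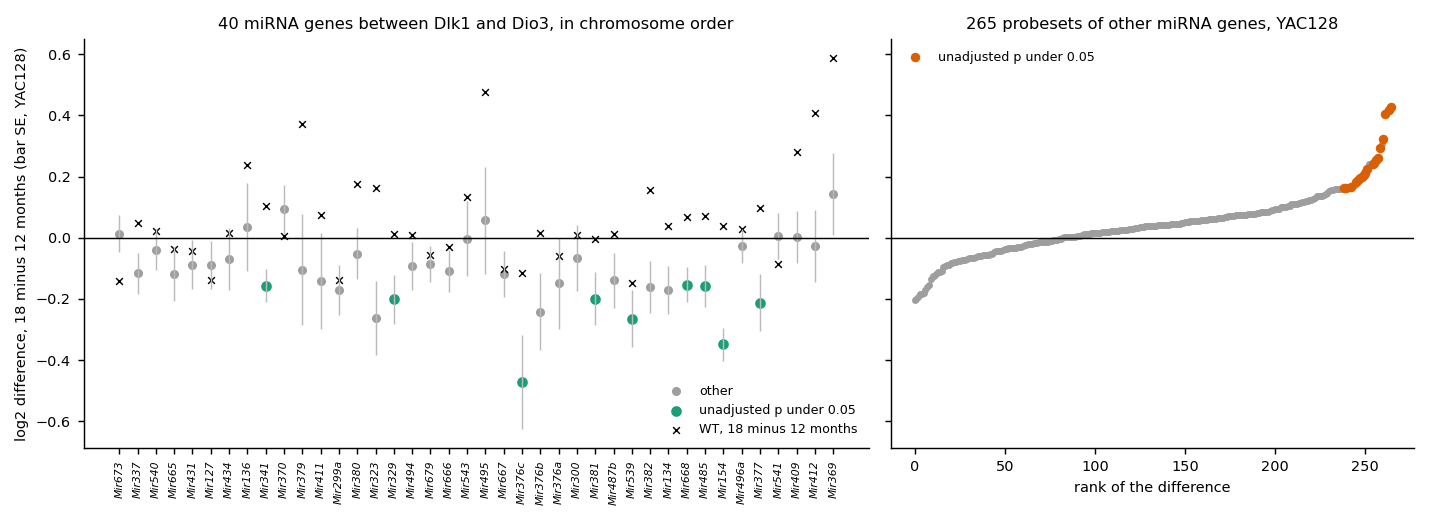
Left, log2 difference between 18 and 12 months of the 40 miRNA genes between Dlk1 and Dio3 in chromosome order, in YAC128 (dots, bars SE, green at an unadjusted p under 0.05) and in WT (crosses). Right, the same difference in YAC128 for 265 probesets of other miRNA genes in rank order (orange at an unadjusted p under 0.05). The 9 called on the left all lie below 0 and the 19 called on the right all lie above it.

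Striatal interneuron genes went in both directions. Of 15 measured, 6 were lower and 1 higher. Th, the gene of a dopamine-making enzyme that a sparse class of interneurons expresses, read 8.22, 8.19, 8.31, 8.39 and 8.26 at 12 months and 7.89, 7.81, 8.12, 7.52 and 7.96 at 18 months. All 18-month arrays were lower (-0.41, SE 0.10, adjusted p = 0.244; -0.33 without M2). Somatostatin (Sst, -0.22, SE 0.09) was lower with overlap, and Chat, the acetylcholine-making enzyme, did not pass (-0.17, SE 0.11). Pvalb, the calcium buffer of fast-spiking interneurons, was higher at 8.77, 8.64, 8.87, 9.55 and 9.06 against 8.51, 8.23, 8.32, 7.89 and 8.33 (0.72, SE 0.17, adjusted p = 0.236). The difference was 0.58 without M2. The thalamus also contains Pvalb. The means of the thalamus, septum and hypothalamus genes were 8.24, 8.22, 8.65, 8.86 and 8.41 at 18 months, against 8.06 to 8.28 at 12 months. In F1 and F2 both Pvalb and Prkcd, a gene of thalamic neurons, were above every 12-month array. The part of neighbouring tissue in the Pvalb difference was not tested.

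The 8 largest differences among the higher genes included those of genes typical of neighbouring tissue. Prkcd, a kinase gene of thalamic neurons, read 8.20, 8.18, 8.33, 8.08 and 8.32 at 12 months and 8.53, 8.36, 10.04, 11.01 and 9.92 at 18 months. The 3 males were far above the 2 females (1.35, SE 0.43, adjusted p = 0.336, 2.55-fold). Slc17a6, the glutamate transporter of thalamic neurons, read 7.08, 6.73, 7.29, 7.09 and 7.81 at 12 months and 7.60, 7.54, 8.93, 9.82 and 8.44 at 18 months. It followed the same 3 arrays (1.27, SE 0.39). Of 22 thalamus, septum and hypothalamus genes 8 were higher and 1 lower, with a median of 0.19, and 5 were higher without the 18-month M1 and M2. Tcf7l2, a transcription factor of the thalamus, differed by 0.60 (SE 0.23), and Lhx2, the other defining gene, by -0.05 (SE 0.06).

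Choroid plexus genes rested on 2 arrays. The list mean was 7.12, 7.15, 7.14, 7.56 and 7.22 at 12 months and 8.37, 7.37, 7.24, 8.65 and 7.28 at 18 months. The median difference of the 17 measured genes was 0.55, 3 were called, and without the 18-month F1 and M2 the median was 0.050 and 1 was called. Otx2, a transcription factor of the choroid plexus, read 8.68 and 8.91 in those 2 arrays and 6.89 to 7.16 in the other 18-month arrays, and did not pass without M2. Ttr, the carrier of thyroid hormone that the choroid plexus secretes, spread widely within both ages, up to 12.99 at 12 months and 13.62 at 18 months, and did not pass (1.21, SE 0.78). Foxj1, which defines ciliated ependyma, was level (0.02, SE 0.06).

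Of 15 genes of meninges and fibroblasts 6 were higher (40%) and none lower, with a median of 0.25, and without the 18-month M2 3 were higher and the median was 0.14. Ogn, a matrix proteoglycan gene, was higher in every 18-month array (0.72, SE 0.19), and Col1a1 did not pass (0.05, SE 0.08). The median of the cortical projection neuron genes was -0.025, and -0.092 without the 18-month M2. Their main marker, the cortical glutamate transporter gene Slc17a7, ranged from 9.30 to 10.99 at 12 months and from 9.38 to 11.15 at 18 months, so some arrays of both ages held more of it. Of 19 endothelial and mural genes 3 were higher, among them the glucose transporter gene Slc2a1 (0.23, SE 0.07), and Cldn5 of the tight junctions did not pass (-0.04, SE 0.08).

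Cell adhesion genes were called often and in both directions. Of 85 measured, 15 were higher (17.6%) and 12 lower, with a median of 0.036, or 0.0077 without the 18-month M2. The integrin gene Itgb8 (0.32, SE 0.07), the laminin gene Lama2 (0.30, SE 0.07) and the glial cadherin gene Cdh19 (0.50, SE 0.11) were higher, the last with overlap. Among the genes of neuronal adhesion, Cntnap3 was one of the largest on the lower side (-0.64, SE 0.19, 1.56-fold lower), with all 6 of its probesets lower. The atypical cadherin gene Fat3 was lower in all 15 of its probesets, by 0.18 to 0.39. Of 34 protocadherins 1 was higher and 2 lower, Pcdh17 differing by -0.35 (SE 0.10). Of 50 actin cytoskeleton genes 9 were higher (18%) and 5 lower (10%).

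Groups with few calls included the basic machinery of the cell. Of 89 oxidative phosphorylation genes 2 were higher (2.25%) and 1 lower (1.12%), and of 40 proteasome genes 2 (5%) and 1 (2.5%). Of 58 ribosomal protein genes 3 were higher (5.17%) and 2 lower (3.45%), against 5.88% and 5.51% of all genes. Over all alternatives 0 to 8 ribosomal protein genes were higher and 0 to 5 lower. For the proteasome these ranges were 0 to 2 and 0 to 4, and for oxidative phosphorylation 0 to 5 and 0 to 2. Of 26 heat shock and chaperone genes 2 were higher and 2 lower (7.69% each). None of 20 cholesterol synthesis genes was called in either direction. Of 18 cell cycle and senescence genes none was higher and 1 lower. Of 17 clock genes 1 was higher and 2 lower, with Arntl, a core activator of the clock, at -0.24 (SE 0.07) and its output gene Dbp at -0.14 (SE 0.08, adjusted p = 0.649). Mouse Htt, whose 18-month arrays lay between 9.79 and 9.91, did not pass (-0.07, SE 0.05, adjusted p = 0.746), and its probeset is that of the mouse gene.

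Olfactory receptors, whose known role is in the nose, had more positive than negative differences. Of 1015 measured, 76 were higher (7.49%, against 5.88% of all genes) and 2 lower (0.197%, against 5.51%). In all, 805 differences were positive, and the median was 0.067. The levels were low, with list means of 5.43 to 5.63 at 12 months and 5.47 to 5.66 at 18 months, which overlap. The number higher was not stable, from 19 to 186 over all alternatives, the 186 being without the 18-month F1 and M2. In WT 103 were higher and 17 lower. Olfr1306 read 3.17, 3.15, 3.19, 3.25 and 3.14 at 12 months and 3.39, 3.64, 3.47, 3.94 and 4.04 at 18 months (0.52, SE 0.12). Of 163 vomeronasal receptors 12 were higher (7.36%) and none lower, and over all alternatives 0 to 25 were higher.

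WT striata of the same ages were used to ask whether the YAC128 change differed from that of normal ageing. The contrast of both changes called 1406 of 34760 probesets at an unadjusted p under 0.05 (4.04%) and none at an adjusted p under 0.05, with a smallest adjusted p of 0.824. The precision was limited by the 3 WT arrays of 18 months, and the count was 3371 without the WT 18-month M2, which was high in thalamus, septum and hypothalamus genes (9.01) and low in medium spiny neuron genes (10.47). In WT alone 1244 of 19937 genes (6.24%) were called, 3.21% higher and 3.03% lower. Gfap was 0.96 higher in WT (SE 0.20) and 1.13 in YAC128, a difference of 0.17 (SE 0.27, adjusted p = 0.978). Gabra2 was 0.49 lower in WT and 0.57 lower in YAC128, and that difference did not pass either (-0.08, adjusted p = 0.978).

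Over all genes 3.14% were called in the contrast of both changes. With 5 and 3 arrays in WT, its counts of calls are not directly comparable with those of YAC128. Of the 46 myelin genes 21 were higher in WT (median 0.18) and 42 in YAC128, and none of the 46 was called in the contrast. Of the 33 reactive glia genes 17 were higher in WT (median 0.22), and none was called in the contrast. Of the 33 medium spiny neuron genes 1 was lower in WT (median -0.13) and 29 in YAC128, and 1 (Ryr1) was called in the contrast, whose median over the list was -0.19. The WT means of this list were 10.74 to 11.03 at 12 months and 10.90 (F1), 10.97 (M1) and 10.47 (M2) at 18 months. Of the WT 18-month arrays only M2 lay below the 12-month range, so the WT median and the contrast depend on that array. Of the 28 immediate early genes none was lower in WT, and 2 were called in the contrast.

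Egr1 and Nptx2 were the 2 immediate early genes whose change differed from WT at the unadjusted threshold. Egr1 was -0.06 in WT and -0.50 in YAC128, a difference of -0.44 (adjusted p = 0.978). For Nptx2 the difference was -0.26 (adjusted p = 0.978). Th differed from WT by -0.38 (adjusted p = 0.978) and Mir154 by -0.39 (adjusted p = 0.978), where their own changes in WT were -0.03 and 0.04, and Ryr1 by -0.37 (adjusted p = 0.978). Of the 40 miRNA genes between Dlk1 and Dio3, 3 were higher and none lower in WT (median 0.019), and 7 differed in their change, all toward lower in YAC128. Slc12a2, the sodium, potassium and chloride cotransporter of glia and choroid plexus, was 0.43 higher in YAC128 (SE 0.06, adjusted p = 0.217) and 0.21 higher in WT, a difference of 0.22 (adjusted p = 0.978).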

How the data were processed

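The authors hybridised striatal RNA to Affymetrix mouse gene arrays and deposited robust multichip average (RMA) values, which are background-corrected, quantile-normalized and on the log2 scale. The version of their RMA software is not given in the sources used here. The 10 YAC128 arrays of 12 and 18 months were compared with limma 3.58.1 in R 4.3.3 (lmFit and eBayes) over all 34760 probesets with no filter and no further scaling, with Benjamini-Hochberg adjustment across the whole array. Of the probesets 21640 carry 1 gene symbol, 1321 several and 11799 none. The change in YAC128 was set against that in WT by an interaction contrast over 18 arrays. Each gene was represented by 1 probeset, the one with the highest mean over the 10 arrays among those naming that gene alone, and list members without such a probeset were not measured here. The genes named were drawn from the 12 of smallest p and the 8 of largest difference in each direction, and mouse Htt was added. In each list they were drawn from the 4 of smallest p at p under 0.05 and its defining markers. Not every gene of these sets is described. MiRNA genes, the members given as exceptions and the genes that passed in the fit of all 26 arrays were named after their values were seen. The gene lists and members were chosen with earlier results of these data known, and lists are described by counts and medians with no set test. Some genes belong to several lists, so the counts of different lists are not independent. The alternatives were other scalings, filters, model terms and array sets, and each array left out in turn. Each mouse gave 1 array, and the number of arrays limits the precision. The scripts were tested on simulated data.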

Additional observations from a re-analysis of the deposited data

Results flagged for a closer look

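Of 266 groups of 5 arrays tested, 34 had an array whose gap to the nearest other array exceeded 0.71 of the range, where chance flags about 1 in 20. At 12 months these were the choroid plexus list mean, with M1 highest at 7.56 against 7.12 to 7.22 in the other arrays, and with it Slc4a5, a choroid plexus transporter gene, at 7.32. F1 was the highest for Il33 at 9.60, C1qa at 8.84 and Spata2l at 9.15, and M2 the lowest for Tac1 at 11.36.

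At 18 months most of the flags were M2 as the lowest array. They held for the list means of medium spiny neuron identity (9.89), the direct pathway (8.79), the indirect pathway (9.75) and dopamine and cyclic AMP signalling (10.03). Among medium spiny neuron genes M2 was the lowest for Ryr1 at 7.44, Pde10a at 11.23, Ppp1r1b at 10.86, Rgs9 at 10.44 and Rxrg at 9.18. Of the pathway genes it was the lowest for Drd1 at 9.34, Pdyn at 8.09, Chrm4 at 9.03, Drd2 at 10.46, Gpr6 at 9.25 and Adcy5 at 10.27. It was also the lowest for Ppp1ca at 10.44, Gria1 at 10.97, Synpr at 8.03, Pcdh17 at 8.97 and Myo3b at 6.89. The same array was the highest for the cholesterol synthesis list mean (8.90), Slc12a2 (10.25), Adcy8 (8.95) and Itgb8 (10.16).

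Among the other 18-month arrays, F1 was the highest for the postsynaptic list mean (10.29) and the lowest for Rgs4 (10.49), and M1 the highest for Rhou (9.49) and Arc (9.28). No probeset differed between YAC128 and WT in its change from 12 to 18 months at an adjusted p under 0.05. The cause of these array differences was not tested.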

How the results depend on the processing

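The counts at the unadjusted threshold stayed within 1.5 times of 3463 probesets in every alternative run, from 2455 to 4153. At the adjusted threshold the count was 0 except for 40 with all 26 arrays, and 0 to 1 with single arrays left out. With single arrays left out, 1121 to 1844 probesets did not overlap, and 2500 and 2199 without the 18-month F1 and M2 and without M1 and M2, where fewer arrays are compared. The replicate numbers do not pair the mice, and with the replicate block 3071 probesets were called. The miRNA genes lower between Dlk1 and Dio3 numbered 4 to 13 with single arrays left out and 2 without M1 and M2. The genotype contrast called 989 to 3371 probesets with single arrays left out, 0 to 1 adjusted, and 2436 with array weights. Of the 97 genes tested this way none changed direction, 17 lost the call in at least 1 of 22 alternatives and 4 gained it. The call was lost in 11 for C1qa, 10 for Rgs9 and Slc4a5, 9 for Gpr6, 8 for Tyrobp, 7 for Drd1, 6 for Pde10a, and 5 for Adcy5 and Pdyn. The lower genes numbered 1 to 5 in both pathway lists, 13 to 31 in the medium spiny neuron list and 8 to 23 in the dopamine list.

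The median of the GABA-A list was -0.056 with array weights and -0.0405 over all probesets. Without the 18-month F1 and M2, a setting chosen after seeing the data as was leaving out M1 and M2, medians were -0.12 for interneurons, 0.044 for precursors, 0.050 for choroid plexus and -0.00550 for adhesion; without M1 and M2 they were -0.11, 0.033 and, for chaperones, 0.011. In the genotype contrast the median of cell cycle genes was -0.0027 after quantile normalization and 0.0039 after centring. With single arrays left out, medians ran from -0.0455 to 0.0148 for precursors and -0.153 to -0.0396 for GABA-A, and in the genotype contrast from -0.205 to -0.0397 for interneurons, -0.00144 to 0.131 for endothelium, -0.0303 to 0.114 for reactive glia, -0.210 to -0.0525 for dopamine signalling, -0.132 to -0.0278 for the postsynaptic list, -0.0572 to 0.0120 for oxidative phosphorylation and -0.0795 to 0.00666 for ribosomal proteins. The cause of each was not tested.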
